A study of Mus musculus with 4 samples.

Results

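DNA methylation and imprint maintenance factors are the enzymes and proteins that write, copy, guard and remove methyl groups on cytosines. This set held 10 genes, chosen as a list of gene symbols with no threshold on measured values, of 23259 genes with a value in every library: Dnmt1, Dnmt3a, Dnmt3b, Dnmt3l, Uhrf1, Tet1, Tet2, Tet3, Trim28 and Zfp57. All 10 were found. Their RNA was measured by sequencing of total RNA in 4 clones of male mouse embryonic stem cells, 2 lacking the histone acetyltransferase Gcn5 (KO, gene symbol Kat2a) and 2 with it (WT). Each founder line, 6 and 4, was Gcn5 flox/flox and gave 1 KO clone and 1 WT clone.

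Every clone went through transient transfection with a GFP-Cre vector under the EF1α promoter and a sort at 72 hours. KO clones (6C4 of line 6, 4C2 of line 4) were picked from GFP-positive cells and carried a deletion of exons 3 to 18 on both Gcn5 alleles. WT clones (6-1 and 4-1) were picked from GFP-negative cells and kept both floxed alleles. Culture was on mitomycin-treated feeder fibroblasts; the medium held 15% serum and LIF, a cytokine that sustains self-renewal, at 1000 U/mL. The labels do not say if the RNA came from cells freed of feeders. Each genotype and line was thus 1 clone and 1 library, and the genotypes were compared over 2 lines. P-values measure only the spread between these clones, pooled in part or wholly over genes of similar level.

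In mammals, Dnmt3a and Dnmt3b place new methyl groups on DNA, helped by their catalytically inactive relative Dnmt3l. At replication, Uhrf1 recognises hemimethylated sites and recruits Dnmt1, which copies the mark to the new strand. Tet1, Tet2 and Tet3 oxidise methylcytosine, a step toward its removal. Zfp57 binds methylated imprinting control regions and brings in Trim28, a scaffold for silencing enzymes, which keeps imprints through the waves of demethylation in the early embryo. In stem cells grown in serum and LIF, DNA is highly methylated, and the de novo enzymes increase further when cells leave naive pluripotency for the formative epiblast state.

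Promoter sequence is shown for the de novo family, since Dnmt3a and Dnmt3b had the largest log2 differences between the founder lines among the 9 tested factors and that of Dnmt3l was smaller. RefSeq promoter windows (GRCm38.p6) matched all 10 genes, at 19 start sites. The 250 bases before a start site are printed 5′ to 3′ on the gene's own strand, and capitals mark the letters CACGTG, the E-box that Myc and Max bind, which reads alike on both strands. Dnmt3a is given at its upstream start (chr12:3806730-3806979, plus strand) and at its downstream start (chr12:3891494-3891743, plus strand), Dnmt3b at its start (chr2:153649199-153649448, plus strand) and Dnmt3l at the second of its 3 starts (chr10:78049592-78049841, plus strand).
Dnmt3a upstream start: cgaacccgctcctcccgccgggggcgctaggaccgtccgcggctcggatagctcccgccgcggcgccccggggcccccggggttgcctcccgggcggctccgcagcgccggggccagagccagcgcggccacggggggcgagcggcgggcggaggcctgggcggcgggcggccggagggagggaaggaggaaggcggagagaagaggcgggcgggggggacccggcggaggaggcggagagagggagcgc
Dnmt3a downstream start: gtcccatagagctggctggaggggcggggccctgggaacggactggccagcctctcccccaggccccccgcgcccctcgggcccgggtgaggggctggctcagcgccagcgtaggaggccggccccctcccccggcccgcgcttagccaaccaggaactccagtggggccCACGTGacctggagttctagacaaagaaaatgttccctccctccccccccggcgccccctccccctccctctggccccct
Dnmt3b start: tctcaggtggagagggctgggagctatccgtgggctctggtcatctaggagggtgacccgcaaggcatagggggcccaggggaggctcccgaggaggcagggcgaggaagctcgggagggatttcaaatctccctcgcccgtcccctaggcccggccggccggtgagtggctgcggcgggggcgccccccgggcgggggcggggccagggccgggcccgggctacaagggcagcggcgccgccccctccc
Dnmt3l second start: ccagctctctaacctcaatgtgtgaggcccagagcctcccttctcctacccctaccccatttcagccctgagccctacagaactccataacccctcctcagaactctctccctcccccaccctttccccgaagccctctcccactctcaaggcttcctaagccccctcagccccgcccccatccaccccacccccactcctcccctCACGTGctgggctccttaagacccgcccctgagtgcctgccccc
The E-box was found at 2 of the 19 starts, both printed here, and at 6.02% of 32851 starts of all genes. The Dnmt3l start shown is the only one of its 3 with the E-box, and the downstream start of Dnmt3a is likewise the only one of that gene. The windows of Dnmt3a (upstream start) and Dnmt3b held 38 and 21 CpG, the target of methylation. The downstream start of Dnmt3a had 15 and the second start of Dnmt3l had 4. Over all starts the median was 6 and the 90th percentile 25. This was not particular to the de novo enzymes: Tet2 had 51, the second start of Uhrf1 30 and the third start of Dnmt1 26. The second start of Dnmt3a, not printed, had 40. The files give 1 value per gene, so which start was used in these clones was not measured.

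Values are FPKM, read density per transcript length and library size, scaled by the authors to added spike-in RNA. The sum over all genes was 538257 and 520491 in the KO clones of lines 6 and 4, and 680168 and 757931 in the WT clones. Kat2a was listed at 11.5 FPKM in each KO clone, against 34.4 FPKM in WT of line 6 and 38.7 FPKM in WT of line 4 (log2 change -1.58, SE 0.23, limma adjusted p = 0.0112). Without either KO clone this call ended (adjusted p = 0.426 and 0.472). Defining stem cell markers were present in every clone, with Pou5f1 (Oct4) at 454 to 782 FPKM. Feeder fibroblast transcripts were present too, with 18 of the 20 listed averaging at least 1 FPKM. The summed level of the 20 was 545 and 373 FPKM in the KO clones of lines 6 and 4, against 477 and 557 FPKM in the WT clones. In bulk RNA, fewer cells of a type and less RNA per cell cannot be told apart.

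The 10 factors had very unequal levels, and 4 of the 9 steps in their order were free of overlap over the 4 clones. Trim28, the silencing scaffold, was the most abundant, at 632 FPKM in KO and 745 FPKM in WT of line 6, and at 435 FPKM in KO and 576 FPKM in WT of line 4. Dnmt3l came next, 2.33 to 3.08 times below Trim28 within a clone. Uhrf1, Dnmt3b and Dnmt1 followed at means of 158, 132 and 85.3 FPKM. The range of Dnmt3b overlapped that of Uhrf1 and that of Dnmt1, whereas Uhrf1 lay above Dnmt1 without overlap. Uhrf1 exceeded Dnmt3b in the 2 clones of line 4, and Dnmt3b exceeded it in the 2 clones of line 6. Zfp57, Dnmt3a and Tet1 averaged 32.1, 26.0 and 19.7 FPKM over the 4 clones, and each overlapped its neighbour in the order. Tet1 exceeded Tet2 in all 4 clones, by 1.59 to 1.89 times. Tet3 was below 1 FPKM in every clone, 12.3 to 34.5 times under Tet2.

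**Figure D1:**
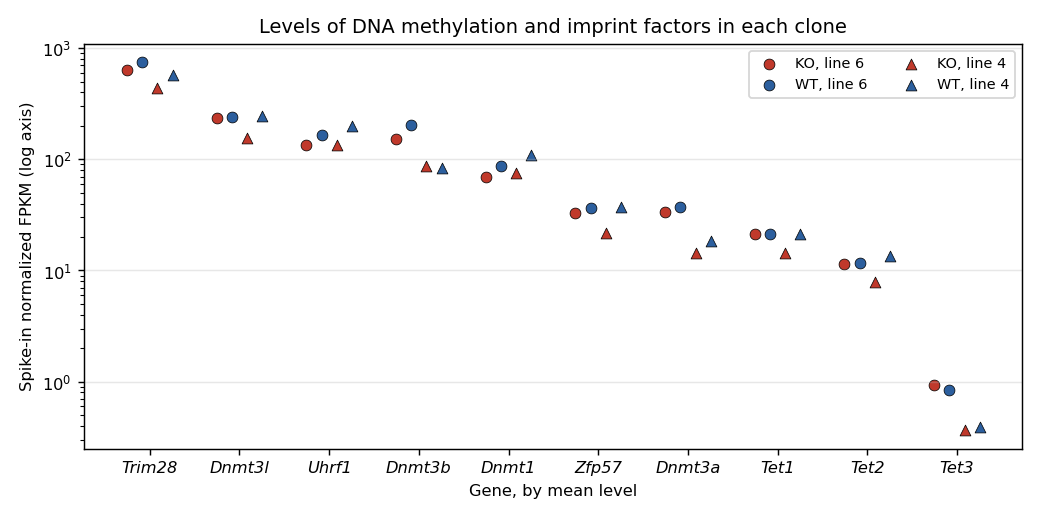
Spike-in normalized FPKM (log axis) of the 10 factors in each of the 4 clones, ordered by mean level, with KO in red, WT in blue, line 6 as circles and line 4 as triangles. Trim28 lies at 435 to 745 FPKM and Tet3 at 0.364 to 0.927 FPKM. The circles of Dnmt3a, Dnmt3b, Tet3 and Trim28 lie above their triangles, and those of Tet1 do so only by 21.42 against 21.39 FPKM.

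KO was compared with WT to find which of these genes depend on Gcn5 at the RNA level. No factor passed the test. Of the 9 with a mean of at least 1 FPKM, the log2 changes ran from -0.45 for Uhrf1 to -0.18 for Dnmt3b, and all lay below 0, as did the median of the 11932 genes tested, at -0.32. At an adjusted p under 0.05, limma called 0.0168% of tested genes, which were 2, Kat2a and Npffr2, which is outside the naming rule and was chosen after its values were seen. At an unadjusted p under 0.05 it gave 10 genes higher and 651 lower, among them Uhrf1. With the founder line as a block it called 95 genes (0.796%), and 0 of the 9 factors. The block fit gave every gene of a level the same spread, so its p-values do not rest on each gene's own spread. KO and WT clones did not overlap for 5 of the 9, Dnmt1, Dnmt3l, Uhrf1, Tet2 and Zfp57, all lower in KO, against 59.8% of tested genes. None of the 9 was higher in KO without overlap, as 0.268% of tested genes were. KO was below WT in both lines for 7 of the 9, all but Dnmt3b and Tet1, against 86.3% of tested genes.

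Spike-in values differed between KO and WT clones more than between clones of the same genotype. Over 32 spike-ins, the log2 difference of KO from WT ran from -2.25 to 1.14 in line 6 and from -2.22 to 1.00 in line 4. Between clones of the same genotype, line 6 minus line 4, it ran from 0.13 to 0.42 in KO and from -0.067 to 0.37 in WT. The SD over the spike-ins was 1.22 and 1.19 for KO minus WT in lines 6 and 4, against 0.067 within KO and 0.079 within WT. The spike-in values thus split by genotype in both lines. The labels name 2 spike-in mixes without saying which clone had which. A genotype effect on most genes and an effect of the mix on the scaling cannot be told apart. Differences are therefore also given relative to the median tested gene.

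The maintenance pair stood slightly below the median gene in KO. Uhrf1, which recruits Dnmt1 to replicated DNA, was listed at 133 FPKM in KO and 167 FPKM in WT of line 6, and at 134 FPKM in KO and 199.6 FPKM in WT of line 4. The 2 KO clones were nearly equal and both lay below the WT clones. The log2 change was -0.45 (SE 0.20, 95% interval -0.87 to -0.024, limma adjusted p = 0.445), or -0.13 relative to the median gene. Dnmt1, the copying enzyme, was listed at 69.6 FPKM in KO and 87.2 FPKM in WT of line 6, and at 75.9 FPKM in KO and 108 FPKM in WT of line 4. Its KO clones also lay below both WT clones, with a log2 change of -0.42 (SE 0.21, limma adjusted p = 0.445), or -0.098 relative to the median gene. These changes are of log2(FPKM + 1), on which changes of low genes look too small. With 0.1 FPKM added in place of 1, the median tested gene stood at -0.353, Uhrf1 at -0.45 and Dnmt1 at -0.42. The pair kept its proportion: Uhrf1 over Dnmt1 was 1.92 in KO and 1.92 in WT of line 6, and 1.76 in KO and 1.84 in WT of line 4.

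Genes of DNA replication, when Uhrf1 and Dnmt1 act, also lay mostly below the median gene, as did other lists. Of 15 replication genes, 0 passed the test in either direction, and 14 lay below the median gene, with a median of -0.38 against -0.32 for all tested genes. Their KO and WT clones did not overlap, with KO lower, for 14 of 15, against 59.8% of all tested genes. Stem cell markers lay below the median gene for 9 of 10 (median -0.47) and naive pluripotency markers for 11 of 12 (median -0.46), with 0 past the test in each list. Feeder transcripts lay above it for 16 of 18. Pcna, the sliding clamp, was listed at 335 FPKM in KO and 424 FPKM in WT of line 6, and at 243 FPKM in KO and 341 FPKM in WT of line 4.

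The de novo enzymes did not share a KO difference. Dnmt3a was listed at 33.6 FPKM in KO and 37.6 FPKM in WT of line 6, and at 14.3 FPKM in KO and 18.5 FPKM in WT of line 4. KO was lower in each line, but the lines lay so far apart that the genotypes overlapped (log2 change -0.25, SE 0.34, limma adjusted p = 0.56). Dnmt3b was listed at 154 FPKM in KO and 204 FPKM in WT of line 6, and at 86.8 FPKM in KO and 84.3 FPKM in WT of line 4. KO was thus lower than WT in line 6 and slightly higher in line 4 (log2 change -0.18, SE 0.32, limma adjusted p = 0.643). A log2 difference above 0 in line 4, as for Dnmt3b (0.041), was seen in 2.36% of tested genes, against 12.3% in line 6, and one above 0 in line 4 and below 0 in line 6 in 1.4%.

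Dnmt3l, the inactive cofactor of the de novo enzymes, differed between KO and WT mainly in line 4. It was listed at 236 FPKM in KO and 242 FPKM in WT of line 6, and at 157 FPKM in KO and 247 FPKM in WT of line 4. A single clone, KO of line 4, stood apart, and the other 3 were close together (log2 change -0.34, SE 0.22, limma adjusted p = 0.445). The same clone was the lowest for Zfp57, Tet1, Tet2, Tet3, Dnmt3a and Trim28, and not for Dnmt1, Uhrf1 and Dnmt3b. Its sum over all genes, 520491, was also the lowest of the clones, as was its median over tested genes, 3.189 on the log2 scale. The share of all tested genes that were lowest in this clone was not counted. In that clone the median tested gene was also 0.44 below WT on the log2 scale, against 0.19 below in line 6.

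Zfp57, the zinc finger protein that marks imprints, was listed at 33.2 FPKM in KO and 36.2 FPKM in WT of line 6, and at 21.8 FPKM in KO and 37.4 FPKM in WT of line 4. The log2 difference in line 4, -0.75, was the largest of the 10 in either line, and 3.92% of tested genes had a lower one or the same. In line 6 it was -0.12, where 68.2% did. Over both lines it did not pass (log2 change -0.44, SE 0.24, limma adjusted p = 0.445). Trim28, its partner, stood at the median gene: the log2 change was -0.32 (SE 0.22, limma adjusted p = 0.445), or -0.0044 relative to it, with -0.053 in line 6 and 0.040 in line 4.

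Among the oxidases, Tet1 was listed at 21.5 FPKM in KO and 21.4 FPKM in WT of line 6, and at 14.4 FPKM in KO and 21.4 FPKM in WT of line 4. It was level in line 6 and lower in KO in line 4, as were 11.3% of tested genes with a difference below 0 in line 4 and above 0 in line 6. Tet2 was listed at 11.4 FPKM in KO and 11.7 FPKM in WT of line 6, and at 7.83 FPKM in KO and 13.4 FPKM in WT of line 4. Neither passed (log2 change -0.27 for Tet1, limma adjusted p = 0.456; -0.38 for Tet2, adjusted p = 0.445). Tet3 was under the filter of 1 FPKM and was not tested: it was listed at 0.927 FPKM in KO and 0.845 FPKM in WT of line 6, and at 0.364 FPKM in KO and 0.389 FPKM in WT of line 4.

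**Figure D2:**
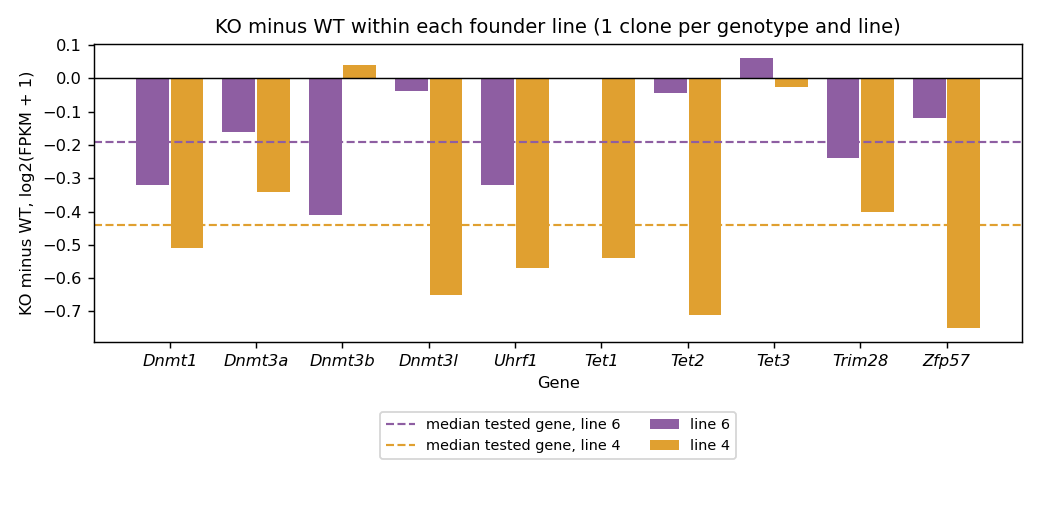
KO minus WT on the log2(FPKM + 1) scale for each of the 10 factors, with 1 bar for line 6 (purple) and 1 for line 4 (orange), each bar a single pair of clones without error; dashed lines mark the median of all tested genes in each line, at -0.19 and -0.44. Dnmt3l, Tet1, Tet2 and Zfp57 lie between -0.75 and -0.54 in line 4 and between -0.12 and 0.0023 in line 6, and Dnmt3b lies at -0.41 in line 6 and 0.041 in line 4.

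Genes that work with these factors did not pass between KO and WT either. Of 14 cofactors of DNA methylation, 15 partners of Trim28 and protectors of imprints, 14 partners of Tet enzymes and base excision genes, and 9 readers of methylated or unmethylated CpG, 0 passed in either direction. Their median log2 changes were -0.32, -0.34, -0.32 and -0.34, against -0.34 for the 9 factors and -0.32 for all tested genes. Germline genes known to be silenced by promoter methylation had a median of -0.48 over 8 tested members, with 6 of 8 below the median gene and 0 past the test. Of 18 tested feeder fibroblast transcripts, 0 passed; their median was 0.24 in line 6, with 17 above 0, and -0.38 in line 4, with 0 above 0. The part of feeder RNA in the differences of the factors was not tested.

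Between the founder lines, the largest differences among the 9 tested factors were those of the de novo enzymes. By size of the log2 change, Dnmt3a, Dnmt3b and Trim28 differed more between the lines than between KO and WT, whereas Dnmt1, Uhrf1, Dnmt3l, Tet2 and Zfp57 differed less. The KO changes include the shift of the median tested gene, -0.32, against -0.013 between the lines. Relative to the median gene, Dnmt1 (-0.20 between the lines, -0.098 between KO and WT) differed more between the lines. So did Dnmt3l (0.29 and -0.028), Tet2 (0.17 and -0.06) and Zfp57 (0.28 and -0.12). Uhrf1 was nearly equal (-0.12 and -0.13). Dnmt3a was listed at 33.6 and 37.6 FPKM in KO and WT of line 6, a mean of 35.6 ± 2.87, and at 14.3 and 18.5 FPKM in KO and WT of line 4, a mean of 16.4 ± 2.91 (SD, n = 2 each). Both clones of line 6 were about 2-fold higher than both clones of line 4, with an FPKM ratio of 2.34 in KO and 2.04 in WT. The log2 change was 1.08 (SE 0.34, 95% interval 0.41 to 1.75), which did not pass over all genes (limma adjusted p = 0.0746). Dnmt3b was listed at 154 and 204 FPKM in KO and WT of line 6, a mean of 179 ± 35.6, and at 86.8 and 84.3 FPKM in KO and WT of line 4, a mean of 85.6 ± 1.76 (SD, n = 2 each). Its FPKM ratio was 1.77 in KO and 2.42 in WT, and its log2 change was 1.04 (SE 0.37, 95% interval 0.32 to 1.76, limma adjusted p = 0.145).

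Limma called 1.98% of tested genes between the lines, 113 higher and 123 lower in line 6, and 0 of the 9 factors. That fit left the genotype in the residual spread and gave every gene of a level the same spread. With genotype as a second term limma called 9.13% of genes, 3.67% higher in line 6. Dnmt3a (limma adjusted p = 1.77e-05) and Dnmt3b (2.73e-06) were among the higher ones. This fit also gave every gene of a level the same spread, so its p-values do not rest on each gene's own spread. On values centred on each clone's median, with line as the only term, limma called 30.2%, 16.4% higher in line 6. Dnmt3a (limma adjusted p = 0.00192), Dnmt3b (0.00805), Trim28 (0.0144) and Tet1 (0.0332) were among the higher ones. The mean difference of Dnmt3a exceeded that of 99.4% of tested genes, and that of Dnmt3b exceeded 99.3%. The files of line 6 and line 4 differ in header and rounding, and no source used here says whether the lines were scaled together. Over 32 spike-ins, the median log2 difference of line 6 from line 4 was 0.29 within KO and 0.16 within WT. The part of this offset in the line differences was not tested.

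**Figure D3:**
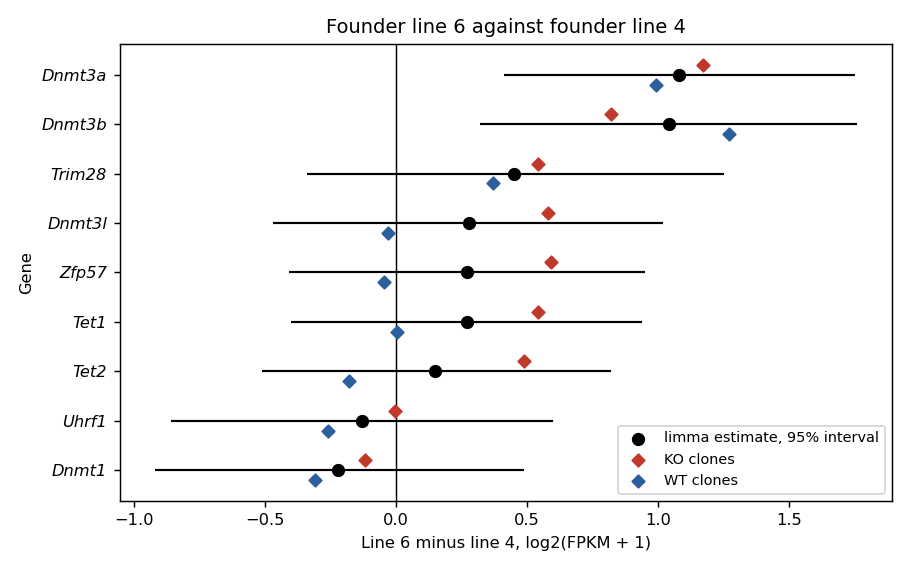
Line 6 minus line 4 on the log2(FPKM + 1) scale for the 9 tested factors: black points are limma estimates with 95% intervals over 4 clones, and diamonds are the difference within KO clones (red) and within WT clones (blue). The intervals of Dnmt3a and Dnmt3b lie above 0, and all others cross 0.

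Of the 9, 7 lay above 0 in line 6, all but Dnmt1 and Uhrf1, against 48.4% of tested genes. For Dnmt3l, Tet1, Tet2 and Zfp57 the values of the lines were further apart in KO clones than in WT clones, and this was not tested. In WT clones, Dnmt3l, Tet1 and Zfp57 were nearly the same in both lines, at FPKM ratios of line 6 over line 4 of 0.98, 1.00 and 0.967. In KO clones these ratios were 1.501, 1.49 and 1.53, and that of Tet2 was 1.45, against 0.874 in WT. The median tested gene also shifted, to a log2 difference of 0.12 in KO clones and -0.14 in WT clones. Relative to it, Dnmt3l stood at 0.47 in KO and 0.11 in WT, and Tet1 at 0.42 and 0.14. Zfp57 stood at 0.47 in KO and 0.096 in WT, and Tet2 at 0.37 and -0.037. Trim28 was higher in line 6 in both genotypes, at ratios of 1.45 in KO and 1.29 in WT (log2 change 0.45, SE 0.41, limma adjusted p = 0.958). Dnmt1 and Uhrf1 were not, at log2 changes of -0.22 and -0.13 (adjusted p = 0.999 for both). With quantile normalization Dnmt1 was called lower in line 6 (log2 change -0.23, limma adjusted p = 0.0295), and on centred values it was not (0.165). The quantile setting called 3865 of 11932 tested genes, 1947 of them lower in line 6. The clones of the lines did not overlap, with line 6 higher, for 4 of the 9, Dnmt3a, Dnmt3b, Tet1 and Trim28, against 16.3% of tested genes; for Tet1 the gap was between 21.42 and 21.39 FPKM.

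Ratios within a clone do not depend on a common scaling factor. Dnmt1 over Dnmt3b was 0.453 in KO and 0.427 in WT of line 6, against 0.874 in KO and 1.29 in WT of line 4. The level of Dnmt1 per transcript length was thus below that of Dnmt3b in every clone except WT of line 4. Dnmt1 over Dnmt3a was 2.07 in KO and 2.32 in WT of line 6, against 5.29 in KO and 5.87 in WT of line 4. Dnmt3l over Dnmt3a was 7.03 in KO and 6.44 in WT of line 6, against 11.0 in KO and 13.4 in WT of line 4. Dnmt3l over Dnmt3b was 1.53 in KO and 1.19 in WT of line 6, against 1.81 in KO and 2.93 in WT of line 4, a small gap between the lines in KO clones and a wider one in WT clones. Dnmt3b over Dnmt3a was 4.58 in KO and 5.43 in WT of line 6, against 6.05 in KO and 4.57 in WT of line 4, and here the lines overlapped.

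Tet3 was also higher in line 6, at 0.886 ± 0.0579 FPKM against 0.377 ± 0.0178 FPKM in line 4 (SD, n = 2 each), a ratio of 2.35 at a level where the pseudocount of 1 hides most of it. In a fit without the filter its log2 change of 0.45 had a limma adjusted p of 0.195. B230319C09Rik, which overlaps Tet3 on the other strand in GENCODE M21, was listed at 0.261 and 0.416 FPKM in KO and WT of line 6 and at 0.0412 and 0.0269 FPKM in KO and WT of line 4. Aire overlaps Dnmt3l on the other strand and was listed at 8.36 to 16.2 FPKM, and Zbtb45 overlaps Trim28 at 3.21 to 5.43 FPKM, both far below their partners. The library kit marks strand, but no source used here says whether counting used it. Dnmt3c, a rodent copy of Dnmt3b, had no row, so reads it may share with Dnmt3b could not be separated.

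Mat2a, which makes S-adenosylmethionine, the methyl donor of all DNA methyltransferases, passed the test between the lines. It was listed at 92.4 and 93.5 FPKM in KO and WT of line 6, against 28.6 and 37.1 FPKM in KO and WT of line 4. Its log2 change was 1.49 (SE 0.35, limma adjusted p = 0.00315), higher in line 6 in both genotypes, and the call ended without either clone of line 6 (adjusted p = 1.00 for both, with log2 changes of 1.49 and 1.48) and without the filter (0.197). It was the 1 of 14 cofactors to pass, and Ahcy, which clears the product of methylation, was listed at 179 and 219 FPKM in KO and WT of line 6 and at 181 and 240.1 FPKM in KO and WT of line 4. Hells, a remodeler that opens chromatin to Dnmt enzymes, was at 146 and 162 FPKM in line 6 and 126 and 179 FPKM in line 4. Of the partners of Trim28, 0 of 15 passed, with 14 above the median gene and a median of 0.20. Of the Tet partners and base excision genes, 0 of 14 passed, with 11 below the median gene and a median of -0.29. Of the CpG readers, 0 of 9 passed, with 7 above the median gene and a median of 0.23.

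Markers of the formative epiblast lay in the same direction as Dnmt3a and Dnmt3b. All 11 tested members lay above the median gene in line 6, at a median log2 change of 0.92 against -0.013 for all tested genes, and 5 of 11 were higher past the test, against 0.947% of tested genes. Outside the naming rule and chosen after their values were seen, these were the transcription factors Sall2, Foxd3, Pou3f1, Zic2 and Lef1. The gene lists were chosen with earlier results of these data known, so their counts against all tested genes are a description only. Sall2 was listed at 3.24 and 3.98 FPKM in KO and WT of line 6, against 0.612 and 0.644 FPKM in KO and WT of line 4 (limma adjusted p = 1.52e-06). The log2 changes of the other 4 ran from 1.03 for Foxd3 (limma adjusted p = 0.00598) to 1.18 for Lef1 (0.0255). Without WT of line 6 each of the 5 calls ended (adjusted p of 0.313 to 1.00), and without KO of line 6 all but that of Sall2 did. Without the filter none of the 5 passed (adjusted p of 0.205 to 0.447). Etv5 and Etv4, the most abundant of the list, did not pass. The summed level of the list was 185 and 195 FPKM in KO and WT of line 6, against 121 and 155 FPKM in KO and WT of line 4.

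Markers of naive pluripotency lay the other way. Of 12, 10 lay below the median gene in line 6, at a median of -0.44, and Tcl1, a coactivator of Akt, passed (log2 change -1.31, limma adjusted p = 0.0120). Tcl1 was listed at 14.5 and 17.2 FPKM in KO and WT of line 6, against 30.01 and 54.4 FPKM in KO and WT of line 4, and its call ended without either clone of line 6 (adjusted p = 1.00 for both) and without the filter (0.428). Dppa3, which shields maternal DNA from oxidation and restrains Uhrf1, is on this list and among the cofactors. It was listed at 65.6 and 86.4 FPKM in KO and WT of line 6 and at 121 and 124 FPKM in KO and WT of line 4. The summed level of naive markers was 406 and 505 FPKM in KO and WT of line 6, against 506 and 766 FPKM in KO and WT of line 4.

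Germline genes known to be silenced by promoter methylation lay on the lower side in line 6, without passing the test. All 8 tested members lay below the median gene, at a median log2 change of -0.50, with 0 past the test, and for 4 of 8 the clones of line 6 lay below those of line 4, against 17.4% of tested genes. Sycp3, of the meiotic chromosome axis, was listed at 12.8 and 15.2 FPKM in KO and WT of line 6, against 22.6 and 28.5 FPKM in KO and WT of line 4. Tex19.1 was listed at 15.4 and 16.6 FPKM in line 6, against 18.1 and 27.7 FPKM in line 4. DNA methylation itself was not measured in these files. The summed level of feeder transcripts did not separate the lines, though S100a4 of that list passed (log2 change 1.24, limma adjusted p = 0.0289, ended without either clone of line 6), and its part in the line differences was not tested.

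**Figure D4:**
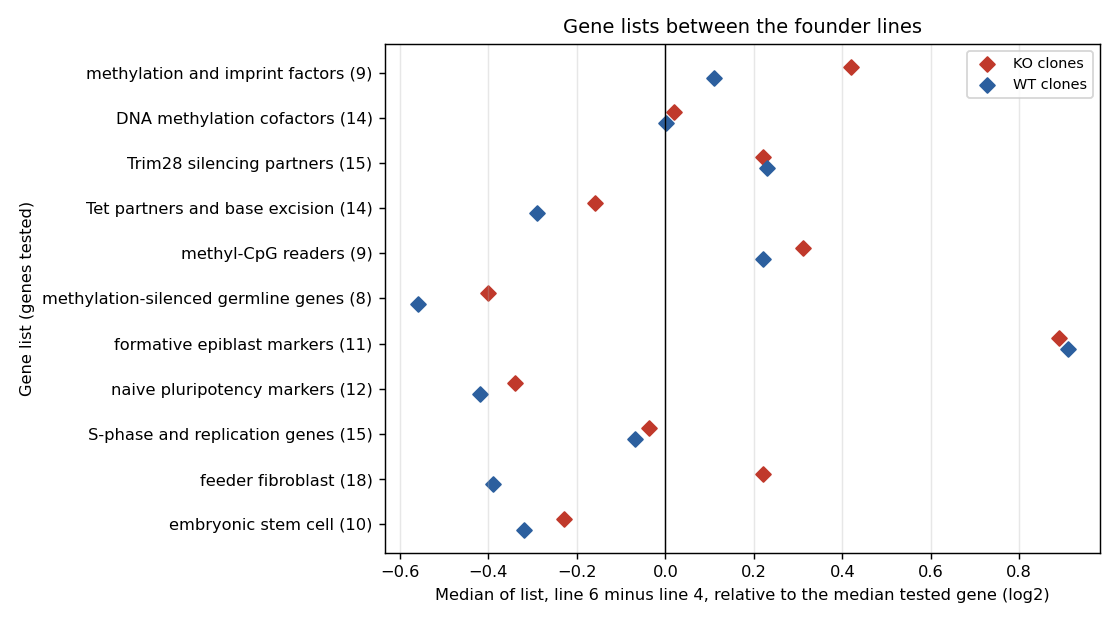
Median log2 difference of line 6 from line 4 for each gene list, relative to the median tested gene, within KO clones (red) and within WT clones (blue), with the number of genes tested in brackets. Formative markers lie near 0.9 in both genotypes, and naive markers and methylation-silenced germline genes lie below 0 in both.

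On the log2(FPKM + 1) scale, the 3 tested factors with the widest range over the clones were Dnmt3a, Dnmt3b and Trim28. Among 11931 other tested genes, the profiles closest to Dnmt3a were those of Ncoa5 and Gpatch3, at root mean square distances of 0.0135 and 0.0311 on the log2 scale over the 4 clones. Those closest to Dnmt3b were Cd24a (0.0843) and Tmem54 (0.0852), both also higher in line 6 with KO below WT there. Those closest to Trim28 were Usp44 (0.0101) and Gdf3 (0.0127). With 4 clones and this many genes, close profiles are a description only.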

How the data were processed

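RNA sequencing libraries of 4 clones were used. The authors deposited 1 file per library, with spike-in normalized FPKM per gene, per the file headers. Per the submitters' processing notes, the tools were affy, edgeR, HTSeq, TopHat2 2.0.9 and Bowtie 0.12.8, with no roles stated, and the build was mm9. Per the labels' protocols, 1 µg of RNA was spiked with 2 µL of control RNA diluted 100-fold. How the scaling was done and the depth are not given in the sources used here, and no interval for counting error is printed; a gene without signal is listed at 0.00937 to 0.0107 FPKM.

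Of 23376 entries per file, 25 could not be matched by name across files and, with 92 spike-ins, were left out. The scale is log2(FPKM + 1), on which changes of low genes look too small. Tests covered genes averaging 1 FPKM or more, with limma 3.58.1 in R 4.3.3 (trend, two-sided, Benjamini-Hochberg over all 11932 genes, threshold 0.05), for KO against WT and for line 6 against line 4. The scripts were tested on simulated data. Replicate numbers name the founder line (1 is line 4, 2 is line 6), so they pair the samples; same-numbered deviations correlated at 0.695 across genes. The members and lists were chosen with earlier results of these data known. Named genes are the 10 factors, Kat2a, list members past a test where there are up to 3, the 3 most abundant of each list (of these, only some are printed) and the nearest profiles.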

Additional observations from a re-analysis of the deposited data

Results flagged for a closer look

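For 3 factors KO differed from WT in opposite directions in the founder lines, with 1 pair of clones per line, so the difference between the lines was not tested. Dnmt3b stood at -0.41 in line 6 and 0.041 in line 4 on the log2 scale, a difference of -0.45. Tet1 stood at 0.0023 in line 6 and -0.54 in line 4, a difference of 0.54. Tet3, which was below 1 FPKM, stood at 0.063 in line 6 and -0.026 in line 4, a difference of 0.089.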

How the results depend on the processing

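Between KO and WT, 2 genes were called, against 0 without the filter, on centred values or with quantile normalization, 95 with the replicate block (33 if values were also centred, 91 if the spread was robust), and 0 to 133 without single libraries. Between the lines, 236 were called, against 0 without the filter, 3602 on centred values, 3865 with quantile normalization, 1089 with genotype as a second term, 3531 with that term on centred values, and 7 to 1607 without single libraries. No factor passed between KO and WT in any of these settings, and the block changed no factor's call. On centred values Kat2a was called with the block (adjusted p = 0.0469) and not without it (1.00). The sign turned for some. On centred values, with or without the block, Dnmt3a stood at 0.054, Dnmt3b at 0.12 and Tet1 at 0.039. With quantile normalization they stood at 0.093, 0.20 and 0.072, and Dnmt3l at 0.045 and Trim28 at 0.11. Without single libraries, Dnmt3a ran from -0.84 to 0.33, Dnmt3b from -0.82 to 0.45 and Tet1 from -0.54 to 0.0032. Between the lines, without single libraries, Dnmt1 ran from -0.47 to 0.037, Dnmt3l from -0.049 to 0.60, Uhrf1 from -0.42 to 0.16, Tet2 from -0.20 to 0.51 and Zfp57 from -0.11 to 0.65. Dnmt3a ran from 0.91 to 1.25 and Dnmt3b from 0.84 to 1.24, with adjusted p of 0.00143 to 1.00 and 0.0484 to 1.00. The cause of these changes was not tested. Fits without 1 library leave 1 group with a lone clone, which is assumed to vary like the others. Depth is unknown.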
